A study of Mus musculus
Mus spretus with 18 samples.

Results

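The pluripotency factors described here are 10 genes, Pou5f1, Nanog, Sox2, Klf4, Esrrb, Sall4, Zfp42, Tfcp2l1, Lin28a and Foxp1, chosen by symbol as known regulators of the stem cell state. They are 10 of the 38924 rows of the deposited expression table. Of these genes, 8 also have skipped-exon (SE) events, among 15437 gene symbols with such events, while Sox2 and Lin28a have none. RNA-seq libraries were made from first-generation hybrids of a female C57BL/6J and a male SPRET/EiJ mouse, so every cell carried 1 genome of each strain. Cerebral cortex, heart, kidney, lung and spleen came from untreated female hybrids of 8 weeks. The liver libraries, also of 8 weeks, were made from the same animals in an earlier study. Embryonic stem cells (ESC) were 2 independent hybrid clones grown in N2B27 medium with 2i inhibitors and LIF. Hybrid fibroblasts received either DMSO (control) or 0.1 µM pladienolide B (PladB), an inhibitor of the splicing factor SF3B1, for 4 h. Each of the 9 groups had 2 libraries, 18 in all. The organ libraries came from 2 animals, and the sources do not say whether the fibroblast libraries were separate cultures, so p-values measure only the spread between these libraries. The strain labels of the liver libraries name C57BL/7J and C57BL/8J in place of C57BL/6J, and they were read as the same hybrid.

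Mouse ESC renew themselves through a small circuit of transcription factors that bind each other's regulatory regions and those of many genes active in the early embryo. Pou5f1 (OCT4), Sox2 and Nanog form its core, and LIF and the 2i inhibitors of MEK and GSK3 keep Klf4, Esrrb, Tfcp2l1 and Zfp42 high in the naive state that resembles the inner cell mass. Several members have separate lives in adult tissue: Sox2 in neural and airway progenitors, Klf4 in epithelium and endothelium, Esrrb in metabolic tissue, Tfcp2l1 in renal collecting ducts, and Foxp1 in lymphocytes, neurons and lung.

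Junction reads summed over the listed SE events came to between 46558287 in a cortex library and 151755602 in a control fibroblast library. ESC clones 1 and 2 had 73349137 and 85755969. A read can count in several events, and 41524 events were listed in cortex, 53862 in ESC and 67961 in fibroblasts. These sums are therefore only a rough measure of depth. The 5 ESC markers Dppa5a, Utf1, Tdgf1, Fgf4 and Dppa3 summed to 7005 and 6931 TPM, the deposited unit of transcript abundance corrected for gene length and depth, in the ESC clones. They summed to at most 4.40 TPM in any organ library, and all 5 were listed at 0 in all 4 fibroblast libraries. The markers of each organ were highest in that organ. The ESC clones differed more than any other pair of replicates: 19.9% of genes differed by more than 2-fold between them, against 1.86 to 4.47% in the other 8 pairs. Because the tissues are mixtures of cells, fewer cells of a type and less RNA per cell cannot be told apart.

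Pou5f1 (ENSMUSG00000024406; GRCm38 chromosome 17, 35506032 to 35510777) encodes the POU factor without which no inner cell mass forms. It had the highest ESC level of the 10 genes, 1146 and 1261 TPM in clones 1 and 2. Outside ESC its highest values were 0.343 and 0.457 TPM in lung and 0.105 and 0.136 TPM in spleen, and it was listed at 0 in both heart, kidney, liver and PladB fibroblast libraries. ESC and all other groups were thus separated by more than 3 orders of magnitude.

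Nanog (ENSMUSG00000012396; chromosome 6, 122707489 to 122714633), a homeodomain factor that guards against differentiation, followed at 1026 and 1018 TPM in ESC. Lung had 0.33 and 0.256 TPM and control fibroblasts 0.234 and 0.113 TPM, and no other library exceeded 0.117 TPM. Both Pou5f1 and Nanog have retrotransposed copies elsewhere in the genome, and reads shared with such copies were not separated here.

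Sox2 (ENSMUSG00000074637; chromosome 3, 34649995 to 34652461) encodes the HMG-box partner of OCT4. It stood at 409 and 414 TPM in ESC, at 56.2 and 53.0 TPM in cortex, and at 19.5 and 18.6 TPM in lung. Control fibroblasts had 0.66 and 0.572 TPM and all other libraries at most 0.144 TPM. Sox2 therefore had clear levels in ESC, cortex and lung, with no overlap between these groups, and the ESC mean was 7.53 times the cortex mean. The gene lies within the longer noncoding transcript Sox2ot, and fragments that overlap several genes were divided between them by the authors.

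Klf4 (ENSMUSG00000003032; chromosome 4, 55527137 to 55532475) encodes a zinc-finger factor downstream of LIF. It was measured at 1 TPM or more in every group but liver. The ESC clones had 373 and 333 TPM, the lung libraries 148 and 117 TPM, the control fibroblasts 33.2 and 31.5 TPM, and the heart libraries 31.1 and 26.1 TPM. PladB fibroblasts (11.9 and 15.4 TPM), spleen (11.2 and 8.61 TPM), kidney (8.51 and 7.50 TPM), cortex (5.61 and 4.72 TPM) and liver (0.70 and 0.623 TPM) followed. No neighbours in this order overlapped, and the ESC mean was only 2.66 times the lung mean.

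Esrrb (ENSMUSG00000021255; chromosome 12, 86361117 to 86521628) encodes an orphan nuclear receptor of the naive state. It had 312 and 350 TPM in ESC, 23.7 and 23.9 TPM in kidney, and 20.3 and 21.9 TPM in heart. Cortex had 1.96 and 1.95 TPM, lung, spleen and liver at most 0.319 TPM, and control fibroblasts were listed at 0. Kidney and heart were the only organs above 2 TPM, and the ESC mean was 13.9 times that of kidney.

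Tfcp2l1 (ENSMUSG00000026380; chromosome 1, 118627923 to 118685168) encodes a CP2-family factor that can by itself support self-renewal. Its ESC values of 257 and 437 TPM were the closest to an organ, after Klf4, of the 9 genes that were highest in ESC: kidney had 99.4 and 88.1 TPM, so that the ESC mean was 3.70 times the kidney mean. Control fibroblasts had 15.5 and 16.0 TPM and lung 7.51 and 7.48 TPM. The remaining organs lay between 0.394 and 1.77 TPM.

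Zfp42 (ENSMUSG00000051176; chromosome 8, 43295067 to 43307009), the zinc-finger gene also called Rex1 and used as a reporter of the naive state, was the most restricted. It had 456 and 390 TPM in ESC and 0.124 TPM in 1 spleen library, and was listed at 0 in all other libraries.

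Sall4 (ENSMUSG00000027547; chromosome 2, 168748332 to 168767201), a spalt-family zinc-finger factor, had 111 and 152 TPM in ESC. Its next levels were 0.588 and 0.522 TPM in heart and at most 0.186 TPM in any other library. Lin28a (ENSMUSG00000050966; chromosome 4, 134003330 to 134019196), an RNA-binding protein that blocks let-7 maturation, was the lowest of the 9 genes that peaked in ESC, at 10.3 TPM in clone 1 and 37.0 TPM in clone 2. Spleen had 0.26 to 0.288 TPM of Lin28a and no other library exceeded 0.0394 TPM. The 2 clones therefore differed 3.58-fold in Lin28a, against 1.70-fold in Tfcp2l1 and at most 1.37-fold in the 7 other genes apart from Foxp1.

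Foxp1 (ENSMUSG00000030067; chromosome 6, 98925342 to 99522746) encodes a forkhead repressor, and its order of levels ran the other way. It had 2.62 TPM in ESC clone 1 and 0.562 TPM in clone 2, a 4.66-fold difference. Spleen was highest with 42.5 and 29.6 TPM, followed by cortex with 22.3 and 22.4 TPM, control fibroblasts with 19.1 and 18.4 TPM, and lung with 18.9 and 18.1 TPM. Kidney (4.25 and 3.88 TPM), heart (3.61 and 3.84 TPM), PladB fibroblasts (2.58 and 2.75 TPM) and liver (2.23 and 2.37 TPM) came next. The ESC range overlapped those of liver and PladB fibroblasts, lung overlapped control fibroblasts, and the spleen mean was 22.7 times the ESC mean. Fibroblast markers moved with Foxp1 between the clones: the 7 markers summed to 46.5 TPM in clone 1 and 16.9 TPM in clone 2, with 4 and 2 of the 7 at 1 TPM or more and none at 0. In fibroblasts they summed to 2376 to 2638 TPM. Their part in the Foxp1 level was not tested.

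**Figure D1:**
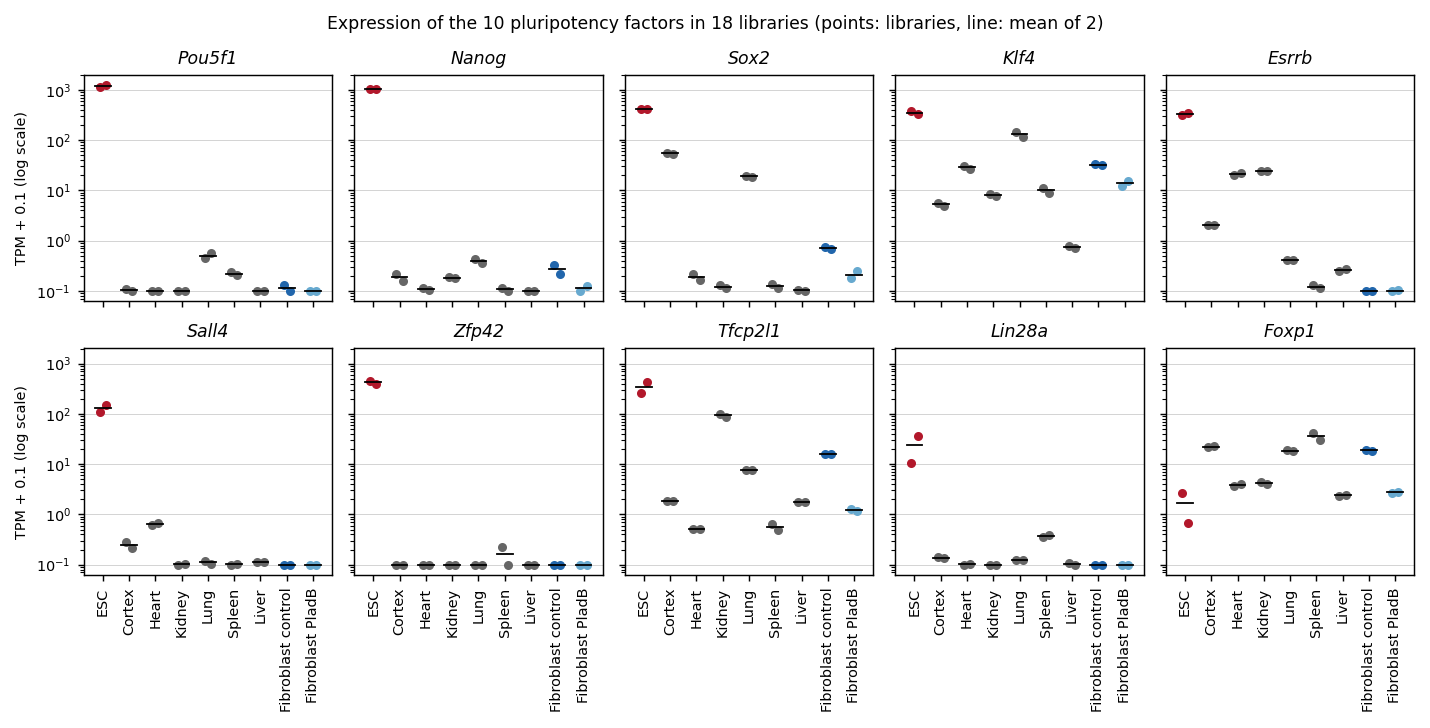
Level of each gene in the 18 libraries as TPM + 0.1 on a log axis; points are libraries and lines are means of 2. Red ESC points sit at the top in 9 panels, while in the Foxp1 panel spleen is highest and the 2 ESC clones are spread from 0.562 to 2.62 TPM.

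To ask how far ESC stood from each tissue, log2(TPM + 0.1) was compared in a single limma fit over all 18 libraries, and a gene was called at a Benjamini-Hochberg adjusted p under 0.05 with a log2 difference of at least 1. The spread of a gene in this fit was shared by all groups. Where the ESC clones differed more than other pairs, standard errors and p-values of ESC contrasts understate the spread between clones. All 10 genes passed the filter of 1 TPM in 2 libraries, but Pou5f1, Nanog, Sall4, Zfp42 and Lin28a passed it only through the ESC clones, so for them a difference was built into passing. Against the mean of the 6 organs 9 members were higher in ESC, where 35.7% of all 22136 genes tested were called higher, and Foxp1 was lower, where 25% were called lower. The differences that did not depend on passing through ESC were 8.96 on the log2 scale for Sox2 (SE 0.16, limma adjusted p = 2.9e-13), 7.74 for Esrrb (SE 0.11, adjusted p = 6.1e-14), 6.83 for Tfcp2l1 (SE 0.16, adjusted p = 2.5e-12) and 5.09 for Klf4 (SE 0.13, adjusted p = 6.8e-12). Foxp1 fell by 2.76 (SE 0.34, limma adjusted p = 9.4e-06). For genes near 0 outside ESC the fitted difference depends on the added 0.1 TPM, and it was 12.97 for Pou5f1, 12.66 for Nanog, 11.95 for Zfp42, 9.61 for Sall4 and 7.16 for Lin28a.

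The same 9 members were called higher against every organ and against control fibroblasts. The shares of all genes called higher were 27.7% against cortex, 45.1% against heart, 34.9% against kidney, 32.5% against lung, 30.7% against spleen, 59.5% against liver and 37% against control fibroblasts. All these contrasts share the ESC libraries. The smallest differences were those of Klf4 to lung, 1.42 (SE 0.17, limma adjusted p = 8.4e-06), Tfcp2l1 to kidney, 1.84 (SE 0.20, adjusted p = 3.9e-06), and Sox2 to cortex, 2.91 (SE 0.20, adjusted p = 4.9e-08). Lung and spleen were sequenced at the original read length of the ESC libraries, and the authors trimmed longer reads to that length before alignment. The 9 genes were called higher in ESC against lung and against spleen, but 5 of them passed the filter only through the ESC clones. A part of read length in the differences was not tested. Against control fibroblasts Klf4 differed by 3.44 (SE 0.17, adjusted p = 2.9e-09), Tfcp2l1 by 4.40 (SE 0.20, adjusted p = 1.5e-09), and the 7 other genes by 7.62 to 13.36.

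Foxp1 was called lower in ESC against cortex (-4.06), lung (-3.79), spleen (-4.73) and control fibroblasts (-3.81), each with a limma standard error of 0.45. That error rests on the spread shared by all groups, whereas clone 2 differed from clone 1 by -2.04 on the log2 scale. Foxp1 was also called lower against kidney (-1.63, limma adjusted p = 0.0053) and heart (-1.51, adjusted p = 0.0081), but these calls were lost without ESC clone 2, at -0.62 and -0.49. Against liver it differed by -0.84 (adjusted p = 0.1), and without clone 1 by -1.86, which was called. The shares of all genes called lower in ESC were 33.4% against cortex, 19.9% against heart, 25.1% against kidney, 29.2% against lung, 24.1% against spleen, 13.2% against liver and 17.4% against control fibroblasts.

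Rescaling each library by median-of-ratios size factors moved the median log2 difference of all genes from 0.34 to -0.28 against the organ mean, from 0.79 to 0.00 against heart and from 1.58 to 0.23 against liver. The 7912 higher and 5530 lower genes against the organ mean then became 5238 and 7394. Of the 9 higher members only the call of Klf4 against lung was lost, at 0.999, and Foxp1 was called lower against liver, at -2.42.

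**Figure D2:**
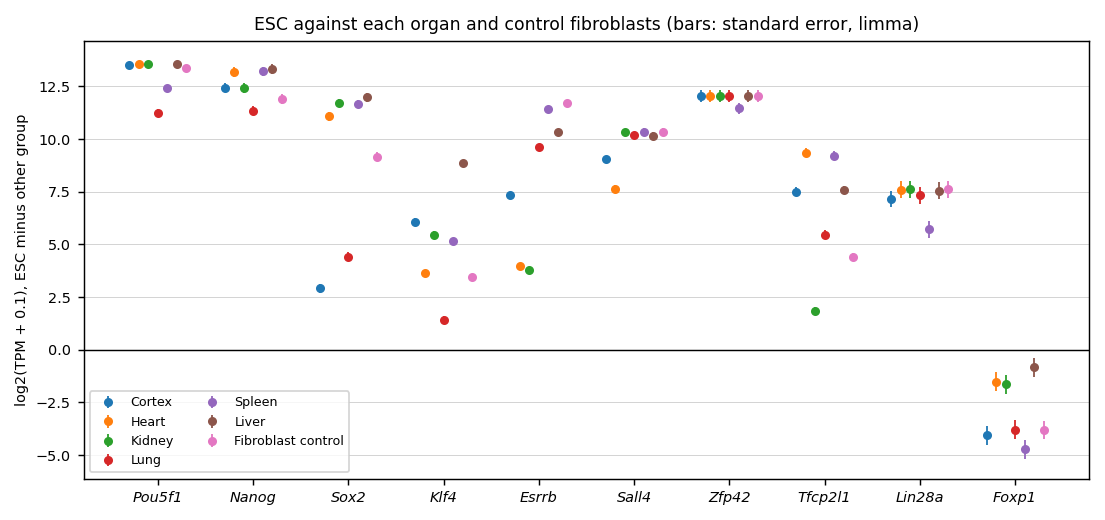
Difference in log2(TPM + 0.1) between ESC and each organ or control fibroblasts for the 10 genes; points are limma estimates and bars standard errors. Klf4 to lung (1.42), Tfcp2l1 to kidney (1.84) and Sox2 to cortex (2.91) lie closest to 0 among the higher genes, and all Foxp1 points lie below 0.

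Of 30 further genes of the pluripotency network 26 were called higher in ESC than in the organ mean, where 35.7% of all genes were, 2 lower, where 25% were, and 2 were not called. Their median log2 difference was 7.87, against 0.34 over all genes, but 11 of the 30 passed the filter only through the ESC clones and had to differ. The largest differences were those of Dppa5a (14.33, at 5701 and 5552 TPM in the clones), an RNA-binding protein of early embryos, Dppa3 (11.11), which protects maternal methylation in the zygote, and Fgf4 (10.98), the ESC's own differentiation signal. At the other end Il6st, the shared LIF co-receptor subunit gp130, differed by -0.80 without a call, and its partner Lifr (-1.12) and the FGF receptor gene Fgfr2 (-1.28) were called lower. Both LIF receptor genes were measured in ESC, with 10.9 and 13.9 TPM of Lifr and 25.8 and 39.4 TPM of Il6st in clones 1 and 2.

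The pattern of Pou5f1 over the 9 group means of log2(TPM + 0.1) was most like those of 4930430A15Rik (Pearson r = 0.997), AU018091 (0.997), Dppa2 (0.996), Gm12190 (0.996) and Gm16220 (0.995). With 1 high group among 9, any gene restricted to ESC gives such a value. Klf4 was most like 2810025M15Rik (0.974), Lamc1 (0.963), Gjc1 (0.937), Tead4 (0.935) and Mpzl1 (0.925), and Foxp1 most like Cbx8 (0.958), Nudt16 (0.95), Alpk1 (0.944), Sdccag8 (0.941) and Atxn7l1 (0.937). These were the highest values among 22136 genes over only 9 means, and so wide a search yields high values by itself. The Foxp1 pattern also averages 2 ESC clones that differed 4.66-fold.

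Splicing of the members in ESC was then read from SE events, each an internal exon with reads for its inclusion and for its skipping. The percent spliced in (PSI), the inclusion reads as a share of both after correction for length, runs from 0 to 1. ESC tables list 30 events of the 10 genes, of which 27 had at least 20 reads in both clones. These lie in 7 genes: Esrrb with 8 events, Tfcp2l1 with 5, Pou5f1, Sall4 and Zfp42 with 4 each, and Nanog and Klf4 with 1 each. Events of a gene share reads and exons, so the 27 events cover 20 distinct exons of 52 to 2367 bp, 11 of them with a length divisible by 3. Of the 27 events, 26 had a mean PSI above 0.9, 1 below 0.1 and none between. Over all 49437 ESC events the shares were 86.2%, 4.19% and 9.65%.

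Inclusion was near complete in Pou5f1 and Nanog. Pou5f1 events ran from 0.995 to 1 on 16855 to 46493 reads, and the 87-bp exon of Nanog had 0.998 and 1.000 on 24440 and 27834 reads. Esrrb events ran from 0.95 to 1, and those of Zfp42 from 0.972 to 0.999. The following exons were singled out after their values were seen, as those furthest from full inclusion. The 153-bp exon of Tfcp2l1 (chr1:118656368-118656520) had a PSI of 0.964 in clone 1 and 0.916 in clone 2, and the 121-bp exon of Klf4 (chr4:55531630-55531750) had 0.992 and 0.951. In both genes clone 2 had the lower inclusion.

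The event below 0.1 was a 74-bp exon of Sall4 (chr2:168761549-168761622), with 17 inclusion against 692 skipping reads in clone 1 and 29 against 1085 in clone 2, a PSI of 0.0123 and 0.0134. It lies between the first exon and the long exon that carries most of the Sall4 zinc fingers. That long exon was listed in a 2367-bp form with a PSI of 0.984 and 0.993 and in a 1035-bp form with 0.962 and 0.983. The latter ends within it and shares its upstream junction, so the values of both forms rest partly on the same reads.

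Foxp1 is known for a stem cell isoform in which an alternative exon changes the forkhead domain. Whether any event listed here is that exon was not tested. Only 3 Foxp1 events were listed in ESC, and none had 20 reads in both clones. The 170-bp exon at chr6:98940995-98941164 had 12 inclusion and 87 skipping reads in clone 1, a PSI of 0.0645 (95% exact binomial interval 0.0332 to 0.112, for counting error only). In clone 2 it had 3 of 12 reads, a PSI of 0.143 (0.0282 to 0.40). Cortex, heart, lung and spleen libraries had 0 to 4 inclusion reads of 156 to 1213, and their PSI was at most 0.00312. The point values of both clones thus lay above those of all 8 of these organ libraries, and the interval of each clone lay above those 8 values as well. The liver libraries had only 9 and 1 reads, and kidney and fibroblast tables do not list the event. With the read minimum lowered to 10 the difference was 0.10 against each of the 4 organs, with adjusted p = 0.055 against cortex and 0.17 to 0.20 against heart, lung and spleen in the limma-moderated quasi-binomial fit, so none was called.

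PSI of ESC and of each other group was compared where all 4 libraries had 20 reads, by a quasi-binomial model of inclusion and skipping reads with a moderated dispersion, called at an adjusted p under 0.05 and a difference of at least 0.1. Since most members are near 0 elsewhere, only the 121-bp exon of Klf4 could be tested against cortex, heart, kidney, lung, spleen and control fibroblasts, and Tfcp2l1 exons against kidney (1) and control fibroblasts (2). None of these 9 tests was called, and no member event could be tested against liver. Over all events 6.14% were called against cortex, 4.31% against heart, 0.847% against kidney, 1.15% against lung, 1.35% against spleen and 1.37% against control fibroblasts. The Klf4 exon had 0.975 and 1 in cortex, 0.960 and 0.978 in heart, 0.968 and 0.942 in kidney, 0.992 and 0.977 in lung and 0.985 and 0.989 in spleen. Its ESC values lay within that spread. The largest member difference was that of the 153-bp Tfcp2l1 exon to control fibroblasts (0.993 and 1), -0.06 with adjusted p = 0.54 in the limma-moderated fit.

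Reads that cover a strain difference were assigned by the authors to either parental genome. For each gene, the event with most such reads gave a C57BL/6J percentage, which was tested against 50% and called at an adjusted p under 0.05 and a share at least 10 percentage points away. Of the 7 members with enough reads, 1 was called lower and 1 higher. Among all 8920 genes 10.7% were called lower and 11.1% higher, with a median share of 50.2% of C57BL/6J. The members' counts are set beside these shares with no test.

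Zfp42 was the most unequal. C57BL/6J gave 707 of 4978 allelic reads in clone 1 and 762 of 5283 in clone 2, a share of 14.2% and 14.4% (adjusted p = 6.2e-05, limma-moderated quasi-binomial fit). Over its 4 events the share ran from 13.3 to 17.3%. The SPRET/EiJ allele thus gave most of the Zfp42 reads in both clones. As SPRET/EiJ was always the father, strain and parent of origin cannot be told apart, for this gene or for Tfcp2l1. Whether reads of each allele were equally likely to be assigned at these junctions was not tested.

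Tfcp2l1 was unequal in the other direction, with 69.2% of 2233 reads from C57BL/6J in clone 1 and 61.8% of 4416 in clone 2 (adjusted p = 0.0087, limma-moderated fit). Over its 3 events the share ran from 60.0 to 77.5%. Nanog had 45.7 and 44.2% (adjusted p = 0.020, limma-moderated fit), which was nearer to 50% than the threshold of 10 points. Pou5f1 had 52.6 and 52.5%, Klf4 46.7 and 48.4%, Sall4 52.6 and 51.1%, and Esrrb 55.6 and 49.2%, with adjusted p of 0.064 to 0.57 in the same limma-moderated fit. Over all their events the shares ran from 52.4 to 53.2% for Pou5f1, from 45.4 to 53.5% for Sall4 and from 42.4 to 55.6% for Esrrb, while Nanog and Klf4 had 1 event each.

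**Figure D3:**
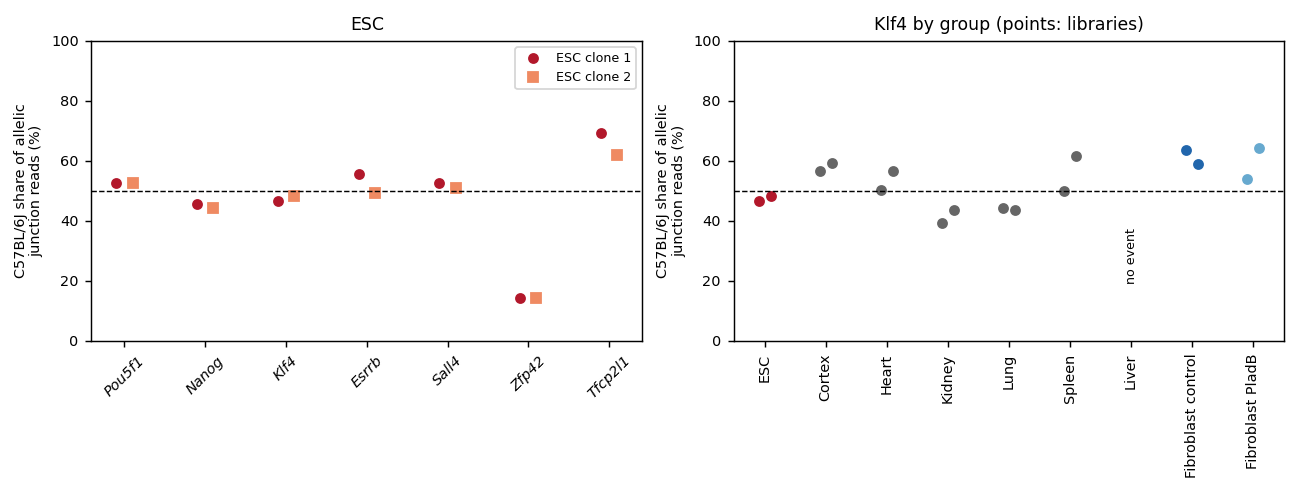
Percentage of allelic junction reads from C57BL/6J for 7 genes in the ESC clones (left) and for Klf4 in each group (right); the dashed line is 50%. Zfp42 lies at 14.2 and 14.4% and Tfcp2l1 at 69.2 and 61.8%. Klf4 lies above 50% in cortex (30 and 32 reads) and control fibroblasts and below it in ESC, kidney (69 and 94 reads) and lung.

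PSI was also compared between the alleles of ESC. Of 23 member events with 20 reads on each allele in each clone, none was called, where 0.0223% of all 31421 events (7) were. This test recovered few changed events on simulated data, so the absence of a call does not show equal splicing of the alleles. The alleles of a library share its RNA. When each library entered the fit as a replicate block, 375 of all events were called, again with no member. The largest difference was that of the 153-bp Tfcp2l1 exon, with 0.879 and 0.851 on C57BL/6J and 1 and 0.964 on SPRET/EiJ, -0.12 with adjusted p = 0.85 in the limma-moderated fit. This exon had 93 and 162 C57BL/6J reads but only 27 and 108 SPRET/EiJ reads. In the other groups 30 member events, of Klf4 and Foxp1, had enough reads on both alleles, and none was called. The shares called among all events there were lowest in liver, at 1.19%, and then 1.76% in spleen, 1.82% in PladB fibroblasts, 1.87% in lung, 1.9% in kidney, 1.95% in heart, 2.12% in cortex and 2.6% in control fibroblasts.

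Members expressed in fibroblasts were compared between PladB and control. In the limma fit 5 of the 10 were called lower, where 36.7% of all genes were, and none higher, where 3.02% were. Tfcp2l1 went from 15.5 and 16.0 TPM to 1.19 and 1.05 TPM, and fell by 3.70 on the log2 scale (SE 0.20, limma adjusted p = 8.2e-09). Foxp1 went from 19.1 and 18.4 to 2.58 and 2.75 TPM, and fell by 2.76 (SE 0.45, adjusted p = 0.00017). These were 14.0-fold and 7.01-fold lower means, with no overlap between the groups.

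Klf4 went from 33.2 and 31.5 to 11.9 and 15.4 TPM, and fell by 1.25 (SE 0.17, limma adjusted p = 4.1e-05). The median gene also fell, by 0.45, and rescaling the libraries to a median of 0 changed the 669 higher and 8121 lower genes into 4024 and 3662. The Klf4 difference was then -0.01 and not called, while Tfcp2l1 and Foxp1 kept their calls at smaller differences, -2.51 and -1.55. Sox2, from 0.66 and 0.572 to 0.077 and 0.144 TPM, and Nanog, from 0.234 and 0.113 to 0 and 0.026 TPM, were called lower at these low levels (-1.78 and -1.25). Both lost their calls under rescaling or with a pseudocount of 1 TPM. Pou5f1, Esrrb, Sall4, Zfp42 and Lin28a were at or near 0 in all 4 fibroblast libraries and were not called.

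Splicing of the 121-bp Klf4 exon also changed. Its PSI was 0.986 and 0.981 in control fibroblasts, on 871 and 929 reads, and 0.325 and 0.281 in PladB fibroblasts, on 99 and 191 reads. The difference of -0.68 was called (adjusted p = 4.7e-09, limma-moderated quasi-binomial fit), where 8.26% of all 54535 events were called lower and 0.171% higher. Both alleles carried it, with a PSI of 0.324 and 0.245 on C57BL/6J and 0.27 and 0.256 on SPRET/EiJ under PladB. The alleles did not differ by a call (adjusted p = 0.96 in the limma-moderated fit). In the control the alleles had 0.982 and 0.986 and 0.977 and 0.960.

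Foxp1 had 19 events of 11 exons testable in fibroblasts, and events of an exon share reads. Of these events 5 were called lower under PladB and none higher, where 8.26% and 0.171% of all 54535 events were. Control values of all 5 were 1 in both libraries. Under PladB the 88-bp exon at chr6:98966027-98966114 had 0.915 and 0.721, the 105-bp exon at chr6:98978133-98978237 0.951 and 0.801, and the 122-bp exon at chr6:98941536-98941657 0.699 and 0.946. The 192-bp exon at chr6:99075854-99076045 had 0.969 and 0.825 and the 191-bp exon at chr6:99162839-99163029 1 and 0.652. Adjusted p ran from 0.00067 to 0.041 in the limma-moderated fit. Each of these calls was lost without 1 of the PladB libraries: the 122-bp exon without replicate 1 (-0.05), and without replicate 2 the 88-bp (-0.09), 105-bp (-0.05), 192-bp (-0.03) and 191-bp (0) exons. These events had 26 to 86 reads in the PladB libraries and 118 to 641 in the control.

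Other events of the 88-bp, 105-bp, 122-bp and 191-bp exons, with other flanking exons, were not called, and the 192-bp exon had no other event to test. The 113-bp exon at chr6:99234794-99234906, which was mostly skipped, had 0.0293 and 0.0307 in the control and 0.0212 and 0.0581 under PladB. Tfcp2l1 events had too few reads under PladB for the test at 20 reads. At a minimum of 10 reads its 153-bp exon differed by -0.09 (adjusted p = 0.11, limma-moderated fit). At that minimum a 96-bp form of Foxp1 with the start of the 192-bp exon was called lower (-0.20, adjusted p = 0.017, limma-moderated fit). It had 0.895 and 0.710 under PladB on 15 and 35 reads.

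**Figure D4:**
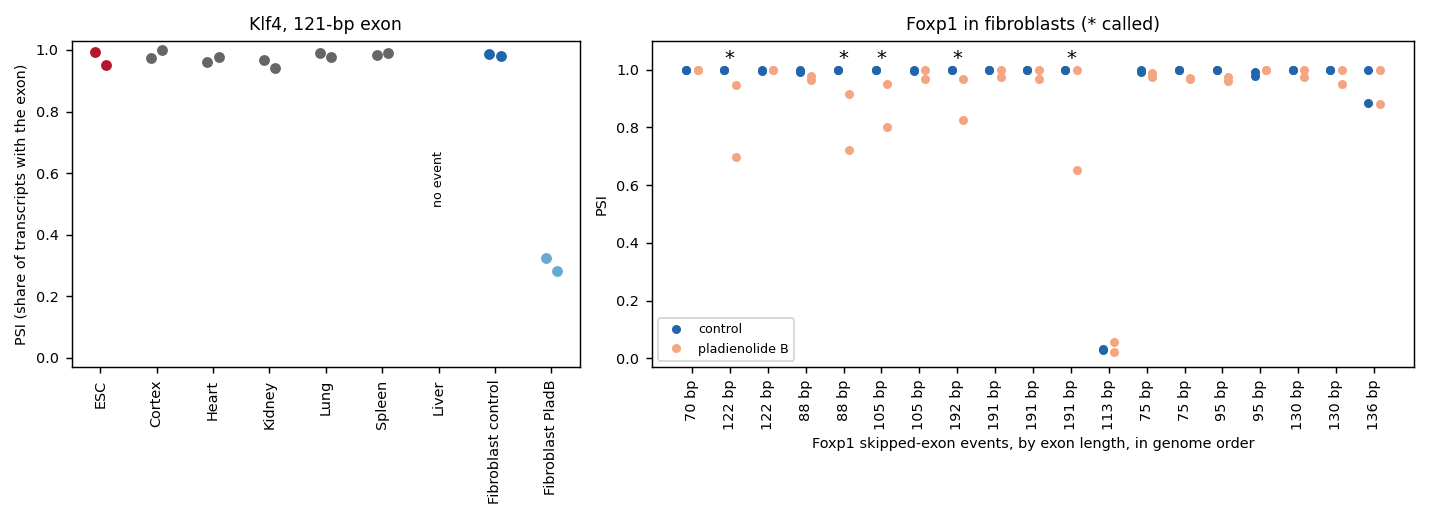
PSI of the 121-bp Klf4 exon in each group (left; points are libraries, and no event is listed in liver) and of the 19 Foxp1 events in fibroblasts (right; stars mark called events). The Klf4 exon lies above 0.94 in all groups but PladB fibroblasts, at 0.325 and 0.281, and the PladB replicates of the 5 called Foxp1 events lie apart from each other.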

How the data were processed

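Gene expression was deposited as TPM, which the authors computed from fractional featureCounts counts after alignment with HISAT2 2.0.1 to C57BL/6J (mm10) and SPRET/EiJ genomes. SE tables from rMATS hold inclusion and skipping read counts per replicate and, as a score, effective lengths given by the authors. Each cell lists both replicates, and their order was checked against TPM, since gene-wise ratios of the second to the first value correlated with those of TPM in every group (Pearson r 0.646 to 0.969). Their columns of p-values, FDR and inclusion differences were not used. C57BL/6J and SPRET/EiJ columns were told apart by imprinted genes (Meg3, Rian, Snrpn and Sgce) in organs and fibroblasts. In ESC these were read from both alleles, and the same order was used. Gene-wise C57BL/6J shares in ESC correlated positively with those of every other group over genes (Spearman rho 0.178 to 0.329, 4302 to 6650 genes).

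Samples were grouped by their labels. Expression was fitted with limma 3.58.1 in R 4.3.3 on log2(TPM + 0.1), all 9 groups in 1 fit, for genes with at least 1 TPM in 2 libraries. PSI and allelic shares were fitted as quasi-binomial models on junction reads, with dispersions of at least 1 moderated by limma squeezeVar along read depth. The prior came from events with at least 5 expected reads of the rarer form in every library, a choice made after the data were seen. Autosomal events needed 20 reads per library, or per allele and library. Adjustment was Benjamini-Hochberg over all features. Of the expression contrasts only that of ESC with the organ mean was checked on simulated data, with the spread of a gene equal in all groups. PSI and allelic tests were each checked on simulated data with known changes, drawn in the end from the fitted priors. The allelic share test there still gave more false calls than its nominal rate. So did, to a smaller degree, the PSI test of PladB against control and the allelic PSI test in ESC. Few changed allelic PSI events in ESC were recovered. A retained-intron table was not used. Replicate numbers do not tie ESC to other samples (correlation of deviations -0.04 to 0.03), whereas alleles of a library are paired by construction (0.45 in ESC).

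All 10 members were named in each comparison. From each gene list the 3 largest and 3 smallest differences to the organ mean were named, and from the splicing events those with intermediate or changed PSI. The members and lists were chosen with earlier results of these data known. Gene positions are those of RefSeq on GRCm38.p6. Alternatives covered the pseudocount, filter, scaling, read minimum, prior, replicate block and leaving out each replicate. Depth per library was read only from sums of SE junction reads, in which a read can count in several events.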

Additional observations from a re-analysis of the deposited data

Results flagged for a closer look

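The allelic share of Klf4 was on opposite sides of 50% in different groups. C57BL/6J gave more than 50% of reads in both libraries of cortex (56.7 and 59.4%), heart (50.1 and 56.7%), control fibroblasts (63.5 and 59.0%) and PladB fibroblasts (53.9 and 64.1%). It gave less than 50% in both libraries of ESC (46.7 and 48.4%), kidney (39.1 and 43.6%) and lung (44.3 and 43.5%). The means of control fibroblasts and kidney lay 19.9 percentage points apart. This difference between groups was not tested.

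For Foxp1 the 113-bp exon gave C57BL/6J shares above 50% in both libraries of cortex (57.1 and 53.5%), kidney (55.1 and 66.7%) and spleen (53.9 and 61.1%). In both control fibroblast libraries they were below 50% (43.1 and 37.8%). The means of kidney and control fibroblasts lay 20.4 percentage points apart, on 49 and 51 allelic reads in kidney, and this difference was not tested. It rests on 1 exon: of the 7 events in control fibroblasts, those of the 95-bp exon (74.9 and 68.5%), the 136-bp exon (64.8 and 80.6%) and the 75-bp exon (56.6 and 51.9%) lay above 50%. Of the 4 in kidney, those of the 87-bp (48.8 and 35.0%) and 90-bp exons (46.2 and 40.4%) lay below.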

How the results depend on the processing

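Of 1831 values recomputed under alternatives no called value changed sign, while some differences without a call did, most of them near 0. Among values of single members 1356 kept their call or size, 20 lost a call, 2 gained a call and 8 moved. Counts of calls moved as follows. With a pseudocount of 1 TPM, members called lower were 0 against heart and 3 under PladB. With median-of-ratios scaling, genes called higher were 5238 against the organ mean, 6426 against heart, 7545 against liver and 4024 under PladB. Genes called lower were then 5776 against liver and 3662 under PladB, and members called lower were 1 against liver and 2 under PladB. The cause was not tested. Leaving out either ESC clone left 4 members called higher against the organ mean, each organ and fibroblasts, because genes restricted to ESC then had only 1 library at 1 TPM and were not tested. Over all left-out libraries the range was 4 to 9. Members called lower ran from 0 to 1 against heart, kidney and liver. Without control fibroblast replicate 1, Nanog under PladB was no longer called.

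Pairing by replicate number, as a replicate block, changed no member's call. It moved the events called in ESC to 413 against kidney, 366 against liver and 588 against control fibroblasts, from 183, 67 and 385. With the library as block, events with an allelic difference went to 375 in ESC, 657 in heart, 841 in lung, 653 in spleen and 409 in liver, from 7, 325, 413, 382 and 162. The prior behind the reported values was narrowed after the data were seen: with the first prior, fits with the block made no calls in several ESC contrasts, and simulated ESC alleles gave too many false ones. The earlier prior, over events with 5 reads of the rarer form in all libraries together, called 2002 events against cortex, 1361 against heart, 819 against kidney, 943 against lung, 945 against spleen, 663 against liver, 853 against control fibroblasts and 105 between ESC alleles, and the 192-bp and 191-bp Foxp1 exons lost their calls under PladB. The 191-bp exon also lost its call with a prior without depth trend, which called 97 allelic events in liver, and the 192-bp exon without either control replicate. A minimum of 50 reads left 3044 events under PladB. Without 1 replicate, events called ran from 725 to 2736 against cortex, 286 to 1630 against heart, 41 to 1530 against kidney, 46 to 932 against lung, 86 to 1023 against spleen, 10 to 1026 against liver and 83 to 1677 against control fibroblasts. These counts rose without either ESC clone and fell without either library of the other group. With 2 libraries a group all tests are limited. Intervals cover counting error only, since reads are not independent molecules.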

Other observations

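Genes of later states were not at 0 in the ESC clones, and several differed between them. Of 8 genes linked to the primed, post-implantation state 7 could be tested, and 6 were called higher in ESC than in the organ mean and 1 lower, where 35.7% and 25% of all genes were, with a median log2 difference of 2.35 against 0.34 over all genes. Against cortex alone 1 was higher and 4 lower, where 27.7% and 33.4% of all genes were, with a median of -2.34. Zic2 (6.41), the de novo methyltransferase gene Dnmt3b (5.00) and Sox3 (4.32) differed most, and Pou3f1 (1.76), Fgf5 (1.17) and Sall2 (-1.47) least. Fgf5, the classical primed marker, stood at 0.274 and 0.606 TPM. Of 16 lineage genes 14 could be tested, with 7 higher, 3 lower and 4 without a call and a median of 0.71. Among all genes 35.7% were called higher and 25% lower. Of these 14 genes, 3 passed the filter only through the ESC clones, so for them a difference was built into passing. Against lung 5 were higher and 6 lower, where 32.5% and 29.2% of all genes were. The trophectoderm and germ cell factor Tfap2c (8.30) and the mesoderm genes Hand1 (5.10) and T (4.12) were highest, and the endoderm genes Foxa2 (-1.96), Sox17 (-2.31) and Sox7 (-3.04) lowest. T, or Brachyury, had 0.602 TPM in clone 1 and 21.0 TPM in clone 2, whereas Hand1 had 15.4 and 1.04 TPM. Lefty2, a Nodal antagonist, had 10.4 and 156 TPM. It was taken from the network genes, not the lineage genes, and was not named by the rule for lists. The clones thus differed in opposite directions for these genes, a description of 2 clones with no test. Of all genes 19.9% differed by more than 2-fold between the clones.

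Of 20 relatives of the members, from the same gene families, 12 were called higher in ESC than in the organ mean, 3 lower and 5 not, with a median of 1.43. Among all genes 35.7% were called higher and 25% lower, and 1 of the 20 relatives passed the filter only through the ESC clones. Against cortex 4 were higher and 5 lower, where 27.7% and 33.4% of all genes were, with a median of -0.01. Sox15 (7.94), Klf5 (7.00) and Sall1 (4.77) were highest and Sall2 (-1.47), Foxp2 (-2.41) and Esrrg (-4.72) lowest. Family members thus lay on both sides: Sall1 stood at 88.0 and 76.6 TPM in ESC and Sall2 at 4.41 and 1.84 TPM, and Esrrg, a paralog of Esrrb, at 0.114 and 0.0378 TPM. Under PladB in fibroblasts 9 relatives were called lower and 1 higher, where 36.7% of all genes were called lower and 3.02% higher before rescaling.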
